A study of Mus musculus with 2 samples.

Results

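The microRNA genes described here are the members of the paralogous clusters Mir106b to Mir25 on chromosome 5 and Mir106a to Mir363 on chromosome X. Members were chosen by symbol. They are Mir106b, Mir93 and Mir25 of the first cluster and Mir106a, Mir18b, Mir20b, Mir19b-2, Mir92-2 (also called Mir92a-2) and Mir363 of the second, together 9 of the 2202 microRNA genes counted. MicroRNA-seq was made from hippocampus tissue of male mice of the hybrid strain B6CASTF1/J (C57BL/6J crossed with CAST/EiJ), aged 36 days. The tissue label reads "layer of hippocampus", no treatment or altered allele is named, and there is 1 group of 2 libraries, biological replicates 1 and 2, so no second condition enters. The replicates are separate tissue samples that carry the same donor label, so a p-value between them compares these 2 libraries and not a condition.

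Both clusters arose by duplication of an ancestral cluster whose best known copy is Mir17 to Mir92-1 on chromosome 14. Each makes 1 primary transcript with several hairpins, which Drosha and Dicer cut into mature microRNAs. The bases near the 5′ end, the seed, pair with target mRNAs, so loci that share a seed are expected to repress overlapping targets. The miR-17 seed family is known for repressing cell cycle inhibitors, and the Mir106b to Mir25 cluster for a role in the proliferation of adult neural progenitor cells. Its host Mcm7 encodes a subunit of the replicative helicase. The chromosome X cluster is known mainly from embryonic stem cells and leukaemias.

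The mature arms generally used as guides are shown because their seeds and the few bases that separate the paralogues define what can be counted. Seeds (bases 2 to 8) are in capitals, and the sequences are those of RefSeq for GRCm38.p6, where all 9 members and the 6 genes of the chromosome 14 cluster were matched. The first group holds the miR-17 seed, with the chromosome 14 paralogues below the 4 members.
miR-106b-5p: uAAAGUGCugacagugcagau
miR-93-5p: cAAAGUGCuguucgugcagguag
miR-106a-5p: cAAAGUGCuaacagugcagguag
miR-20b-5p: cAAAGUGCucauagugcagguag
miR-17-5p: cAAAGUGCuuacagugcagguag
miR-20a-5p: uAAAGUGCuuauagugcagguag
The second group holds the miR-92 seed, of which miR-92b comes from a locus on chromosome 3 outside these clusters.
miR-25-3p: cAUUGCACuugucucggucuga
miR-92a-3p: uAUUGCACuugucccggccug
miR-363-3p: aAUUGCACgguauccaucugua
miR-92b-3p: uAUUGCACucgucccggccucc
The third and the fourth group hold the miR-18 seed (first pair) and the miR-19 seed (second pair).
miR-18b-5p: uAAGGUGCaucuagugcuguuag
miR-18a-5p: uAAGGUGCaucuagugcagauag
miR-19b-3p: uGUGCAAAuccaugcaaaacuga
miR-19a-3p: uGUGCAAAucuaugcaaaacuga

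Among the members and their chromosome 14 paralogues, arms that share a seed differed at 1 to 13 bases where they were not identical. Counted from 1 at the 5′ end, miR-106a-5p differed from miR-17-5p by the single change A10U, and miR-20b-5p from miR-20a-5p by C1U and C10U. The arm of Mir18b differed from that of Mir18 (miR-18a) by U18A and U20A. In the chromosome 5 cluster, miR-93-5p differed from miR-17-5p by G10U, U11A, U12C and C13A, and miR-25-3p from miR-92a-3p by C1U, U14C and U18C over the 21 bases compared. The arm of Mir363 was the most distant of the miR-92 seed, with 11 differences from miR-92a-3p over 21 bases.

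For 7 of the 9 members the guide arm occurred in no other annotated hairpin, and for Mir19b-2 and Mir92-2 it occurred in 1. A read with more than 1 matching place goes to no gene in these files. Reads that end within those shared arms are therefore outside the counts, and the levels of Mir19b-2 and Mir92-2 are uncertain. The hairpins of the pairs are given with the longest shared stretch in capitals, 22 bases for Mir92-1 and Mir92-2 and 25 bases for Mir19b-1 and Mir19b-2.
Mir92-2: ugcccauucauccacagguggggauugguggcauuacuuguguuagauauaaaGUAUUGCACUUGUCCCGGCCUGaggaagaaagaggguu
Mir92-1: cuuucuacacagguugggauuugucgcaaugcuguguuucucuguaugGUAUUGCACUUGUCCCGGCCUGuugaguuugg
Mir19b-2: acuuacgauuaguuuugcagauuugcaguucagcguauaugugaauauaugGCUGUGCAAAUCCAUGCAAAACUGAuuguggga
Mir19b-1: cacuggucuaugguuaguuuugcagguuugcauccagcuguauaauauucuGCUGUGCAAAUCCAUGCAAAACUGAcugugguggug
In both pairs the capitals cover the whole guide arm, and the opposite arm and the loop lie outside them. No other member shared 18 bases with another gene. Counts are per gene, so which arm a read came from is not known.

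The libraries held 4404040 (replicate 1) and 5279877 (replicate 2) counts in the sense direction of the genes, which were scaled to counts per 1000000 (CPM). Reads with several matching places were 40.3% and 46.5% of all reads. For a gene at 0 the upper limit is taken as 3 counts, which is 0.681 CPM in replicate 1 and 0.568 CPM in replicate 2, and intervals and floors cover counting error only. Of 18 neuronal marker genes 14 had 10 or more counts in both libraries, led by the neuronal Mir132. Of the 10 matched markers of pluripotent and early embryonic cells none did, and Mir290a, Mir291a, Mir295, Mir302a, Mir302c and Mir367 were at 0 in both. Except for Mir367, marker arms were not searched for in other hairpins. Reads of a marker may therefore be outside the counts, and its level or its 0 is uncertain to that extent. Mir126a, known from endothelial cells, had 9729 CPM in replicate 1 and 37937 CPM in replicate 2. In such bulk tissue, fewer cells of a type and less RNA per cell cannot be told apart.

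The chromosome 5 cluster gave most of the members' counts, and Mir93 most of those of the cluster. Its 3 genes lie on the minus strand within 498 bases (138165321 to 138165818, mm10), all in intron 13 of the Mcm7 transcript with 15 exons. They summed to 2062 ± 419 CPM (SD, n = 2), with 10387 counts or 0.236% of all counts in replicate 1 (0.231 to 0.240, 95% Wilson interval) and 9321 counts or 0.177% of all counts in replicate 2 (0.173 to 0.180). The sum was higher in replicate 1.

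Mir93 (ENSMUSG00000065527.1, 138165523 to 138165610), a miR-17 seed gene, had 8951 counts in replicate 1 and 7129 in replicate 2, or 2032 and 1350.2 CPM. It ranked 76th of all 2202 genes by mean level. Mir106b (ENSMUSG00000065514.1, 138165737 to 138165818), the first hairpin of the transcript and of the same seed, had 1219 and 1791 counts, or 277 and 339 CPM, and ranked 146th. In contrast to Mir93 its higher library was replicate 2. Mir25 (ENSMUSG00000065394.1, 138165321 to 138165404), the last hairpin and the miR-92 seed gene of this cluster, had 217 and 401 counts, or 49.3 and 75.9 CPM, and ranked 225th. The libraries of these 3 genes did not overlap: the lowest library of Mir93 lay above the highest of Mir106b, and the lowest of Mir106b above the highest of Mir25.

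The chromosome X cluster was low beside that of chromosome 5, but not against all annotated genes. Among the 6 chromosome X genes, 3 reached at least 10 counts in each library, where 411 of all 2202 genes did. At or under the floor in each library were 2 of the 6, against 1612 of all genes. By mean level Mir92-2 ranked 292nd, Mir20b 367th, Mir106a 395th and Mir363 440th of the 2202 genes. The 6 genes of the cluster lie on the minus strand within 875 bases (52741693 to 52742567, mm10). Only the first, Mir106a, overlaps another annotated gene, by 5 bases at the end of the non-coding gene Kis2. The cluster summed to 25.3 ± 8.74 CPM (SD, n = 2), from 84 counts in replicate 1 and 166 in replicate 2. Counts of the chromosome 5 cluster were 124 times as many in replicate 1 (95% exact binomial interval 99.8 to 155) and 56.2 times in replicate 2 (48.2 to 65.9). These intervals did not overlap, so the size of the gap differed between the libraries beyond counting error while its direction did not. Reads that end within the shared arms of Mir92-2 and Mir19b-2 are missing from the chromosome X sum alone. Their number is not known, so the gap may be smaller than these ratios.

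Mir92-2 (ENSMUSG00000065613.1, 52741838 to 52741928), a miR-92 seed gene whose guide arm cannot be assigned, was the highest of the chromosome X genes with 53 counts in replicate 1 and 101 in replicate 2, or 12.0 and 19.1 CPM. Of the cluster's counts it held 63.1% (replicate 1, Wilson interval 52.4 to 72.6) and 60.8% (replicate 2, 53.3 to 67.9). The miR-17 seed gene Mir20b (ENSMUSG00000076041.1, 52742113 to 52742192) had 16 and 27 counts, or 3.63 and 5.11 CPM. Mir106a (ENSMUSG00000065456.1, 52742503 to 52742567), of the same seed, had 10 and 22 counts, or 2.27 and 4.17 CPM. The levels of Mir20b and Mir106a overlapped between the libraries.

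Mir363 (ENSMUSG00000070106.1, 52741693 to 52741767), the last hairpin and a miR-92 seed gene like Mir92-2 before it, had 4 counts in replicate 1 and 15 in replicate 2, or 0.908 and 2.84 CPM. Its replicate 1 value lay just above the floor. Mir18b (ENSMUSG00000077111.2, 52742331 to 52742413), the miR-18 seed gene, had 0 and 1 count. Mir19b-2 (ENSMUSG00000065473.1, 52741983 to 52742066), the miR-19 seed gene, had 1 and 0 counts. Both lay under the floor in each library, which for Mir19b-2 bears only on reads outside the shared arm.

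**Figure D1:**
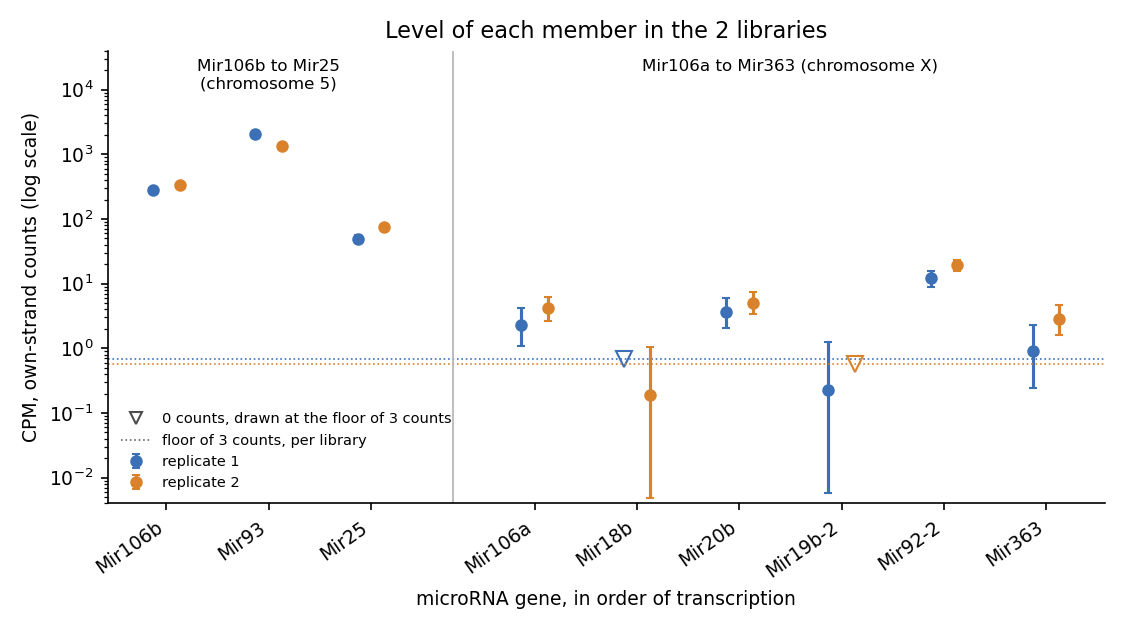
Level of each of the 9 members in CPM (log axis) in replicate 1 (blue) and replicate 2 (orange), with exact 95% intervals for counting error, in order of transcription within each cluster. Open triangles mark 0 counts and are drawn at the floor of 3 counts (dotted lines). The 3 chromosome 5 genes lie between 49.3 and 2032 CPM and every chromosome X gene at or below 19.1 CPM.

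In order of mean CPM the members ran Mir93, Mir106b, Mir25, Mir92-2, Mir20b, Mir106a, Mir363, Mir19b-2 and Mir18b. The first 4 steps of this order, down to Mir20b, held in both libraries, with exact intervals of the count ratio above 1 in each and no overlap between the libraries of neighbours. Mir20b and Mir106a did not differ beyond their spread, with count ratios of 1.60 (0.683 to 3.94) and 1.23 (0.673 to 2.26) in replicates 1 and 2. The same held for Mir106a and Mir363, and for Mir19b-2 and Mir18b. Mir363 stood above Mir19b-2 beyond counting error in replicate 2 alone. Reads that end within the shared arms of Mir92-2 and Mir19b-2 are missing from this order. The step from Mir25 to Mir92-2 and the place of Mir19b-2 are therefore uncertain. Mature arms of 21 to 23 bases are read whole, so CPM was not divided by length, and the order was the same with counts per base of hairpin.

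Set against the chromosome 14 cluster position by position, the chromosome X genes were low wherever the paralogue was detected. Mir17, the paralogue of Mir106a, had 3633 and 3459 counts in replicates 1 and 2, which is 363 times those of Mir106a in replicate 1 (exact interval 197 to 758) and 157 times in replicate 2 (104 to 251). Mir20a exceeded Mir20b by 77.6 times (47.6 to 136) and 47.6 times (32.6 to 72.5). Mir92-1 exceeded Mir92-2 by 24.0 times (18.2 to 32.2) and 34.5 times (28.3 to 42.5), with reads of the shared arm left out of both. The miR-18 pair showed the same order, with 143 and 275 counts of Mir18 against the 0 and 1 of Mir18b.

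The chromosome 5 cluster was of the same order as that of chromosome 14. Its summed counts were 1.65 times those of Mir17 to Mir92-1 in replicate 1 (exact interval 1.60 to 1.70) and 1.10 times in replicate 2 (1.06 to 1.13). Reads that end within the shared arms of Mir92-1 and Mir19b-1 are missing from the chromosome 14 sum, while no chromosome 5 gene has a shared arm. Their number is not known, so these ratios may be too high. Mir93 exceeded Mir17 by 2.46 times (2.37 to 2.56) and 2.06 times (1.98 to 2.15). Mir106b lay below Mir17, at 0.336 (0.314 to 0.358) and 0.518 (0.489 to 0.548) of its counts, and near Mir20a, at 0.981 (0.906 to 1.06) and 1.39 (1.30 to 1.50). Mir25 stood below Mir92-1, which had 5.86 (5.07 to 6.80) and 8.69 (7.83 to 9.66) times its counts. Both clusters end in a miR-92 seed gene, but Mir25 was the lowest gene of its cluster in each library, while Mir92-1 was below Mir17 in replicate 1 and did not differ from it beyond counting error in replicate 2. Mir17 had 2.86 times the counts of Mir92-1 in replicate 1 (2.68 to 3.05) and 0.993 times in replicate 2 (0.947 to 1.04). The guide arms of Mir17 and Mir25 occur in no other hairpin, but counts of Mir92-1 leave out reads that end within its shared arm. The place of Mir92-1 against Mir17, and the size of its ratio to Mir25, are therefore uncertain.

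**Figure D2:**
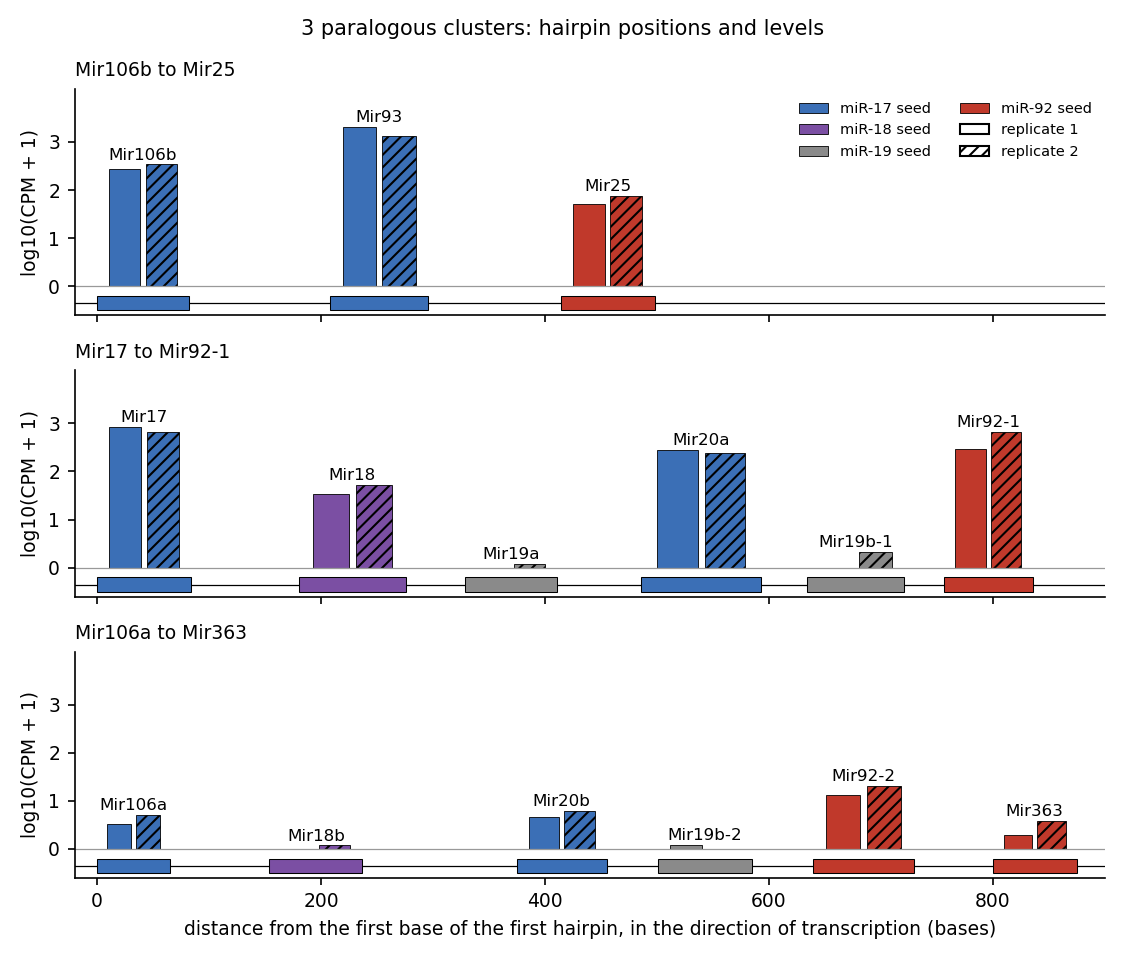
Hairpins of the 3 paralogous clusters drawn to scale by distance in bases from the first base of the first hairpin, with bars for log10(CPM + 1) in replicate 1 (plain) and replicate 2 (hatched), coloured by seed family. Genes of the chromosome 5 and 14 clusters reach 2032 and 825 CPM, while bars of Mir106a to Mir363 stay at or below 19.1 CPM and those of the miR-19 seed near 0.

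Genes of the Mcm7 intron kept their order but not their proportions. Mir93 had 7.34 times the counts of Mir106b in replicate 1 (exact interval 6.92 to 7.80) and 3.98 times in replicate 2 (3.78 to 4.19). It had 41.2 times the counts of Mir25 in replicate 1 (36.0 to 47.4) and 17.8 times in replicate 2 (16.1 to 19.7). For both pairs the intervals of the libraries did not overlap. Mir106b had 5.62 (4.86 to 6.52) and 4.47 (4.01 to 4.99) times the counts of Mir25, and these intervals overlapped. Of the cluster's counts Mir93 accordingly held 86.2% (replicate 1, Wilson interval 85.5 to 86.8) and 76.5% (replicate 2, 75.6 to 77.3). A ratio within a library needs no scaling, but how evenly different sequences are captured was not measured.

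Shifts of this size were common among pairs of neighbouring microRNA genes, which came mostly from the Mir379 to Mir410 cluster. Over 420 pairs of tested genes on the same strand with starts within 10000 bases, the intervals of the libraries did not overlap for 291 pairs, or 69.3%. Where a change could be computed (419 pairs), its median was 1.67-fold. The changes of 1.84-fold for Mir93 over Mir106b and 2.32-fold for Mir93 over Mir25 were equalled or exceeded, themselves included, by 181 and 125 of these pairs, so they did not stand apart. Pairs in this count share genes and are not independent. With most of them from that cluster, they describe mainly its genes and not microRNA clusters in general. In the chromosome X cluster the 6 ratios among Mir92-2, Mir20b, Mir106a and Mir363 had intervals that overlapped between the libraries, which at 4 to 101 counts a gene could show only a large difference.

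**Figure D3:**
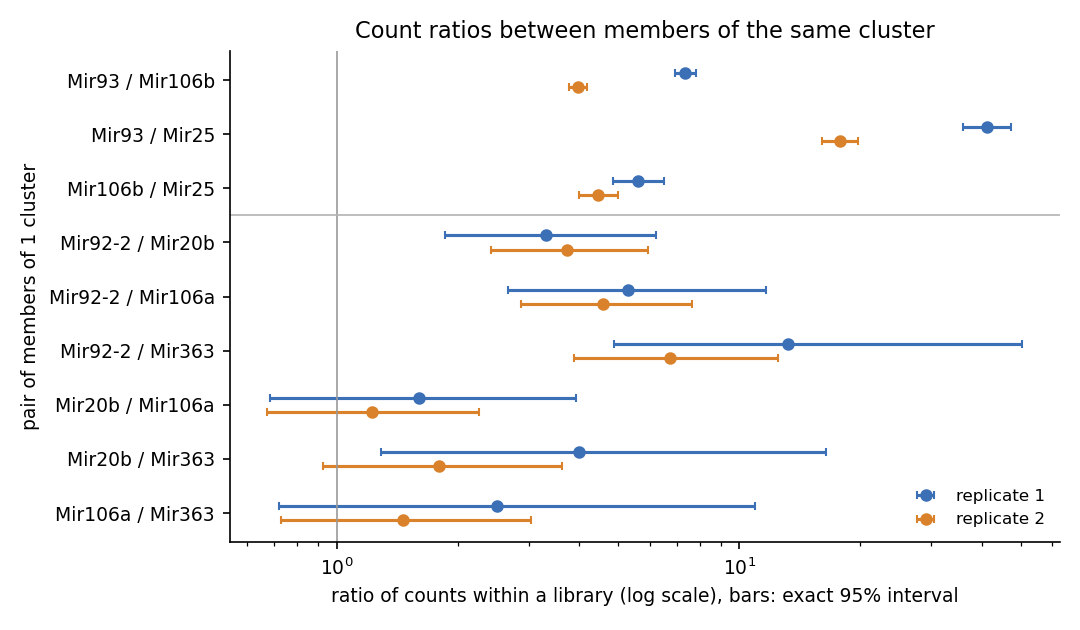
Ratio of counts between members of 1 cluster (log axis) in replicate 1 (blue) and replicate 2 (orange) with exact 95% binomial intervals; the 3 pairs of the chromosome 5 cluster are above the grey line and the 6 of the chromosome X cluster below. Mir93 over Mir106b and Mir93 over Mir25 have intervals that do not overlap between the libraries, and the other 7 pairs have intervals that do.

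The clusters took unequal parts of their seed families. Of all annotated genes with the miR-17 seed, which summed to 3422 CPM in replicate 1 and 2597 CPM in replicate 2, Mir93 and Mir106b gave 67.5% (Wilson interval 66.7 to 68.2) and 65.0% (64.2 to 65.8). Mir17 and Mir20a gave 32.3% and 34.6%. Mir106a and Mir20b gave 0.173% (0.118 to 0.253) and 0.357% (0.270 to 0.472). A 7th gene of this seed, Mir6383, had 0 counts in both libraries. Mir93 alone gave 59.4% and 52.0%, the largest part of any locus in either library.

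In the counts of the miR-92 seed family the members were minor. Mir92b, which lies on chromosome 3 in none of the clusters, had 20998 counts in replicate 1 and 47204 in replicate 2 and gave 92.8% and 91.9% of the family. Mir25 gave 0.959% (Wilson interval 0.840 to 1.09) and 0.781% (0.709 to 0.861). Mir92-2 and Mir363 together gave 0.252% (0.195 to 0.326) and 0.226% (0.188 to 0.271), close to the part of Mir32 on chromosome 4, at 0.340% and 0.265%. Reads that end within the arm shared by Mir92-1 and Mir92-2 are missing from these sums, and their number is not known. With Mir92-1 and Mir92-2 left out, Mir363 as the remaining chromosome X gene gave 0.0251% ± 0.00893 (SD, n = 2), against 0.239% ± 0.0184 for both. The miR-18 family came from Mir18, with 1 count of Mir18b, and the miR-19 family held 1 count in replicate 1 and 7 in replicate 2 over its 3 genes.

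**Figure D4:**
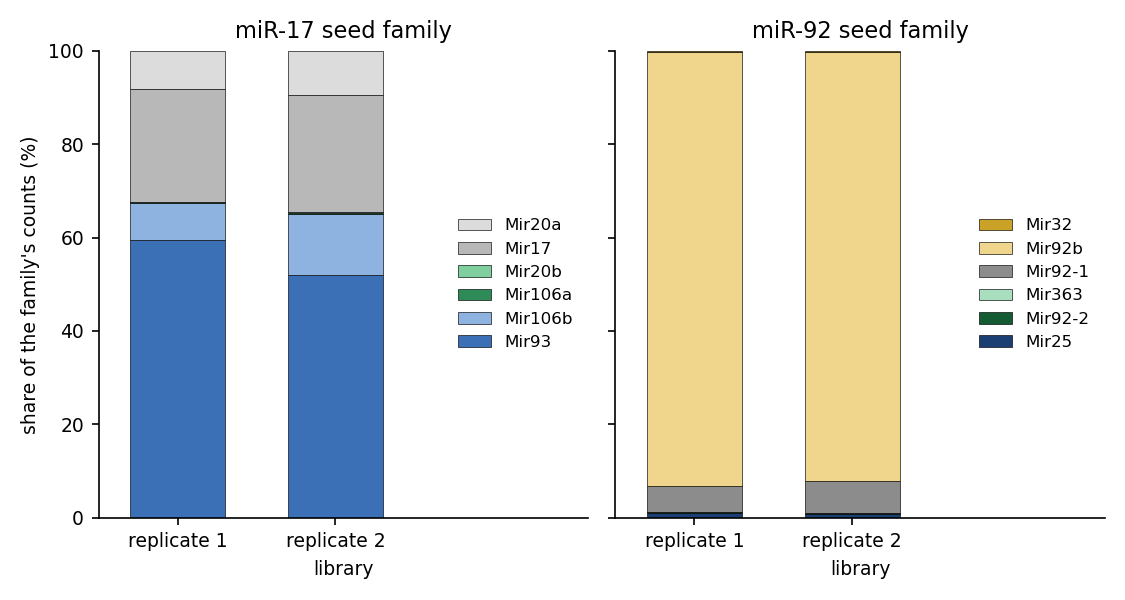
Share of the counts (percent) of the miR-17 seed family (left) and the miR-92 seed family (right) by locus in each library, in blue for the chromosome 5 cluster, green for chromosome X, grey for chromosome 14 and yellow for loci outside the clusters. Mir93 and Mir106b make up 67.5% and 65.0% of the miR-17 seed family, and Mir92b 92.8% and 91.9% of the miR-92 seed family, where the parts of chromosome X are too thin to see.

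Replicate 2 differed from replicate 1 for 4 of the 7 members with 10 or more counts in total, 3 higher and 1 lower. Over all genes with such counts a two-sided exact binomial test given the total of both libraries, with Benjamini-Hochberg adjusted p below 0.05, called 281 of 504, or 55.8%, with 32.5% higher and 23.2% lower, so the members' count is near the background. Mir93 was lower in replicate 2, at 0.656 times its TMM-scaled level in replicate 1 (exact interval 0.636 to 0.677, log2 ratio -0.61, adjusted p = 2.51e-155). Mir106b was 1.21 times as high (1.13 to 1.30, log2 ratio 0.28, adjusted p = 6.46e-07) and Mir25 1.52 times (1.29 to 1.81, log2 ratio 0.60, adjusted p = 1.10e-06).

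In the chromosome X cluster Mir92-2 was 1.57 times as high in replicate 2 (1.12 to 2.23, log2 ratio 0.61, adjusted p = 0.0148). Mir106a, Mir20b and Mir363 did not pass, with ratios of 1.81 (0.824 to 4.29), 1.39 (0.723 to 2.76) and 3.09 (0.985 to 12.8) and adjusted p of 0.234, 0.473 and 0.0670 in the same test. Mir18b and Mir19b-2 were not tested. The median log2 ratio of the 7 tested members was 0.60 and that of all 504 genes 0.05. Of the 7 members 6 lay above 0, and of the 504 genes 267 did. Of those 6 members, Mir106a, Mir20b and Mir363 did not pass the test.

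Among the 10 genes that share a seed with the members without belonging to either cluster, 6 were tested, of which 4 were higher and 2 lower, where 32.5% and 23.2% of all tested genes were. By seed, 5 of the 6 tested miR-92 seed genes were higher and the other, Mir363, did not pass. They included Mir92b (log2 ratio 0.89), Mir92-1 (1.17) and Mir32 (0.52). Of the 6 tested miR-17 seed genes 3 were lower, namely Mir93, Mir17 (-0.35) and Mir20a (-0.23), while Mir106b was higher and 2 did not pass. The split by seed was made after these values were known and was not tested. At 6 genes a seed it is a description, beside the 32.5% called higher and 23.2% called lower over all tested genes.

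The test covers counting error only and includes no spread between tissue samples. With a coefficient of variation of 0.1 between libraries in edgeR's exact test, Mir93 and Mir25 passed and Mir106b and Mir92-2 did not (adjusted p of 0.359 and 0.124). With 0.3, or with the 0.426 that edgeR estimated for these libraries, no member passed and 0 had an unadjusted p under 0.05. Of the 504 genes 14 and 5 passed. The 0.426 was estimated from these same 2 libraries taken as 1 group. It thus contains the difference under test, so few calls could result with it. Among markers of other cells, 4 of 5 microglia and leukocyte markers, 2 of 3 red blood cell markers, 2 of 3 vessel wall markers, 6 of 8 choroid plexus and ciliated epithelium markers and 1 of 3 oligodendrocyte markers tested were higher in replicate 2, against 32.5% of all tested genes. Their summed levels in replicates 1 and 2 were 3433 and 5443 CPM, 66.8 and 113 CPM, 16250 and 43835 CPM, 1333 and 1811 CPM, and 5819 and 5662 CPM. The rises of the vessel wall and choroid plexus sums rested on 1 gene each: without Mir126a the first was 6520 and 5898 CPM, and without Mir204 the second was 650.1 and 606 CPM. Most of the microglia and leukocyte sum was Mir342, with 2507 and 4319 CPM. Without Mir342 that sum was 926 and 1124 CPM, still higher in replicate 2. Mir449b of the choroid plexus list was at 0 in both. Of the neuronal markers tested, 12 of 16 were higher too, and Mir124a-3 was at 0 in both, where reads matching several places are not counted. The neuronal sum was 43376.5 CPM in replicate 1 and 52252.9 CPM in replicate 2. Its highest gene, Mir132, went the other way, with 23835 and 17251 CPM. The part of these cells, and of the larger share of reads matching several places in replicate 2, in the members' differences was not tested.

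**Figure D5:**
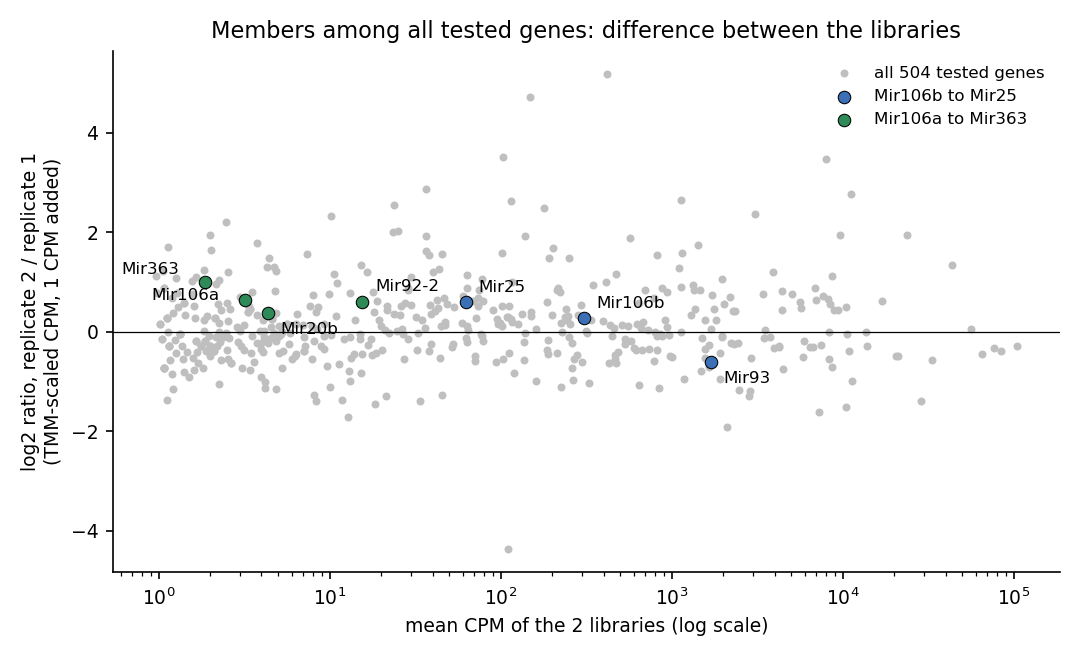
Log2 ratio of replicate 2 over replicate 1 (TMM-scaled CPM with 1 CPM added) against mean CPM (log axis) for the 504 tested genes in grey, with the 3 tested genes of the chromosome 5 cluster in blue and 4 of chromosome X in green. Mir93 lies at -0.61, the other 6 members between 0.28 and 1.00, all within the cloud of the other genes.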

How the data were processed

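MicroRNA-seq of 2 libraries (replicates 1 and 2 of 1 group) was analysed. The deposited files hold raw counts per microRNA gene, mapped to mm10 and counted against GENCODE M21 per the notes deposited with them. Which aligner was used, and its version: not given in the sources used here. Columns for either strand, the gene's strand and the opposite strand were recognised from the values, and counts on the gene's strand were used. Lines that name no gene (64.7% and 65.4% of reads) stayed out of library sizes. All 2202 identifiers matched M21. CPM is a count divided by the library's total over genes, times 1000000.

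Libraries were compared over the genes with 10 or more counts in total by a two-sided exact conditional binomial test (scipy 1.17.1) on library sizes scaled by TMM (edgeR 4.0.16 in R 4.3.3), with Benjamini-Hochberg adjustment at 0.05 and log2 ratios with 1 CPM added. With 1 group, no contrast exists for a quasi-likelihood fit in edgeR. Count ratios have exact binomial intervals and shares Wilson intervals, at 95%. The test and the intervals were tested on simulated data. DESeq2 1.42.0 gave alternative size factors. Seeds, arms and hairpins come from RefSeq (GRCm38.p6), whose hairpins equal those of M21 for these genes.

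The members and lists were chosen with earlier results of these data known. Genes named are the members, the Mir17 to Mir92-1 cluster, genes sharing a seed with a member, and the highest markers. Mir379 and Mir410 are named as the ends of the cluster that gave most neighbouring pairs. Markers named at 0 and the background of neighbouring pairs were added after values were seen. Of 11 pluripotent markers 10 matched.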

Additional observations from a re-analysis of the deposited data

How the results depend on the processing

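The members tested kept their directions and calls with either-strand counts, total counts (also without Mir126a, an alternative chosen after seeing the data), DESeq2 size factors and minimums of 1 and 100 counts. Added overdispersion and the 0.1 CPM added cannot change a direction. Over all genes the calls were 149 higher and 125 lower with DESeq2 size factors and 122 and 130 with the minimum of 100 counts. In edgeR's exact test with coefficients of variation of 0.1, 0.3 and 0.426, genes called higher were 96, 13 and 4 and lower 53, 1 and 1, against 164 and 117. Members called higher were 1, 0 and 0, against 3, and lower 1, 0 and 0, against 1. Scaling over genes with at least 100 counts shifted the median log2 ratio by -0.12. It left 4 members tested, of which 3 were higher and 1 lower. The level of Mir106b to Mir25 ranged from 1765 to 2359 CPM and that of Mir106a to Mir363 from 19.1 to 31.4 CPM with either library left out. Without Mir92-1 and Mir92-2 the chromosome X part of the miR-92 seed family was 0.0251% in place of 0.239%. A library difference cannot be computed from 1 library. No paired analysis was possible because there is 1 group. At under 30 counts a gene, Mir106a, Mir20b and Mir363 can show only large differences.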

Other observations

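The miR-19 seed was nearly absent from the counts although 1 of its 3 genes has an arm of its own. Mir19a, whose guide arm occurs in no other annotated hairpin and differs from that of Mir19b-2 by C11U, had 0 counts in replicate 1 and 1 in replicate 2. Mir19b-1 had 0 and 6 counts, which leave out reads that end within the arm it shares with Mir19b-2. In the chromosome 14 cluster Mir19a lies between Mir18, with 143 and 275 counts, and Mir20a, with 1242 and 1285. Mir19b-1 lies between Mir20a and Mir92-1, which had 1272 and 3483 counts, also without reads of its shared arm. Opposite-strand counts of the 9 members were 0 except for 1 count of Mir93 in replicate 1.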
